A study of Mus musculus with 4 samples.

Results

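The travelling ratio of a gene is the density of RNA polymerase II (Pol II) tags at its promoter divided by the density over its body. It was examined at 4 neighbouring mouse genes, Mrpl15, Lypla1, Tcea1 and Atp6v1h, in 4 libraries of Pol II chromatin immunoprecipitation and sequencing (ChIP-seq). The genes were taken by fixed positions on chromosome 1 of build mm8, and their promoters are 4 of the 13406 enriched regions found in the libraries. The genes were chosen by the promoter and body tag counts of the same 4 libraries, so every level and ratio of theirs is a description with its counting error, and no test was made between conditions. All 4 cultures were V6.5 embryonic stem cells of the C57BL/6-129 background that received 1 µM flavopiridol for 1 h, so no library shows the cells without the drug. For about 4 days the cultures carried a short hairpin RNA: shSpt4 and shSpt5 target the genes they are named for, as does shNelfE, and shControl is the control hairpin. There was 1 library per hairpin, and nothing in the labels says whether other hairpins against the same genes were used. The antibody recognised the N-terminus of Rpb1, the largest Pol II subunit.

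On many genes Pol II starts transcription and then pauses a short way downstream, held by DSIF, which is made of Spt4 and Spt5, and by NELF, of which NelfE is a subunit. The kinase Cdk9 acts on both complexes and on Pol II to release it into the body, and flavopiridol inhibits that kinase. A high travelling ratio thus describes a gene whose Pol II is denser at the promoter than over the body. It does not mean that most tags lie at the promoter, since the body is longer. Mrpl15 encodes a protein of the large subunit of the mitochondrial ribosome, and Lypla1 encodes an acyl-protein thioesterase that takes palmitate off proteins. Tcea1 encodes the elongation factor TFIIS, which helps arrested Pol II to resume, and Atp6v1h encodes subunit H of the vacuolar proton pump.

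Mrpl15 lies on the minus strand with its start at 4775800 and its end at 4763300. The others lie on the plus strand: Lypla1 from 4797900 to 4836800, Tcea1 from 4847700 to 4888000 and Atp6v1h from 5073200 to 5152600. The promoter was taken as 500 bp on each side of the start, and the body began 1 kb downstream, which gave bodies of 11.5, 37.9, 39.3 and 78.4 kb in that order. Each start lay inside an enriched region, 1050 bp wide at Mrpl15 and Lypla1, 1400 bp at Tcea1 and 650 bp at Atp6v1h. The pooled summit was 75 bp downstream of the start at Mrpl15, 175 bp upstream at Lypla1, 75 bp upstream at Tcea1 and 25 bp downstream at Atp6v1h. In the RefSeq gene table of another assembly, GRCm38.p6, the 4 genes stand in the same order, with Rgs20 as the 1 protein-coding gene between them, next to Atp6v1h. Positions on mm8 were at hand for these 4 genes alone, so neither the markers of embryonic stem cells nor the targeted genes were checked.

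Each library kept 2646944 to 3170090 tags after repeated positions were reduced to 1 tag per position and strand. Enriched regions took 20.3% of the tags of shControl and 12.2% (shSpt5) to 16.9% (shSpt4) of those of the knockdowns. By its label, shControl was sequenced on a flow cell of its own, and its cells had 1 passage off feeder cells where the knockdown cells had 2. In every ratio to shControl, therefore, the knockdown, the flow cell and the passages cannot be told apart. Levels below are in RPM, the number of tags in each 1000000 kept tags of the library. All intervals are exact 95% intervals that cover counting error only, and a ratio compares 2 libraries, not 2 conditions.

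Promoter tags were fewer than in shControl at all 4 genes in all 3 knockdown libraries, and travelling ratios were lower in all 12 of these comparisons. The interval of the promoter ratio lay below 1 in 10 of the 12 and that of the travelling ratio in 8. Bodies of other genes were not at hand. The travelling-ratio and body counts therefore have no share over other genes beside them. In a narrower window, from 30 bp upstream to 300 bp downstream of the start, all 12 promoter ratios were below 1 and 5 intervals were. That window leaves out the pooled summits of Lypla1 and Tcea1, which lie farther upstream. With 250 bp on each side 11 intervals were below 1, and with the promoter centred on the pooled summit 10 were. The share of all regions with such an interval was not taken for these other windows. Body tags were above the control in 11 of the 12, with 5 intervals above 1 and none below, but this count depended on the scaling. Scaled to nearby stretches without enriched regions, 6 body ratios were above 1 and no interval was. Scaled to windows of 1 Mb without such regions, 4 were above 1, no interval was, and the interval of Mrpl15 in shSpt5 lay below 1, at 0.551 (0.311 to 0.969). For the promoters, the interval lay below 1 at 3 genes for shSpt4, 4 for shSpt5 and 3 for shNelfE, where 18.5%, 44.2% and 21.3% of all enriched regions had such an interval. The starts held more tags than most regions, which narrows their intervals. Among the 3531 regions with at least the 162 tags of Atp6v1h, the start with fewest, the shares were 25.6%, 70.0% and 43.3%.

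**Figure D1:**
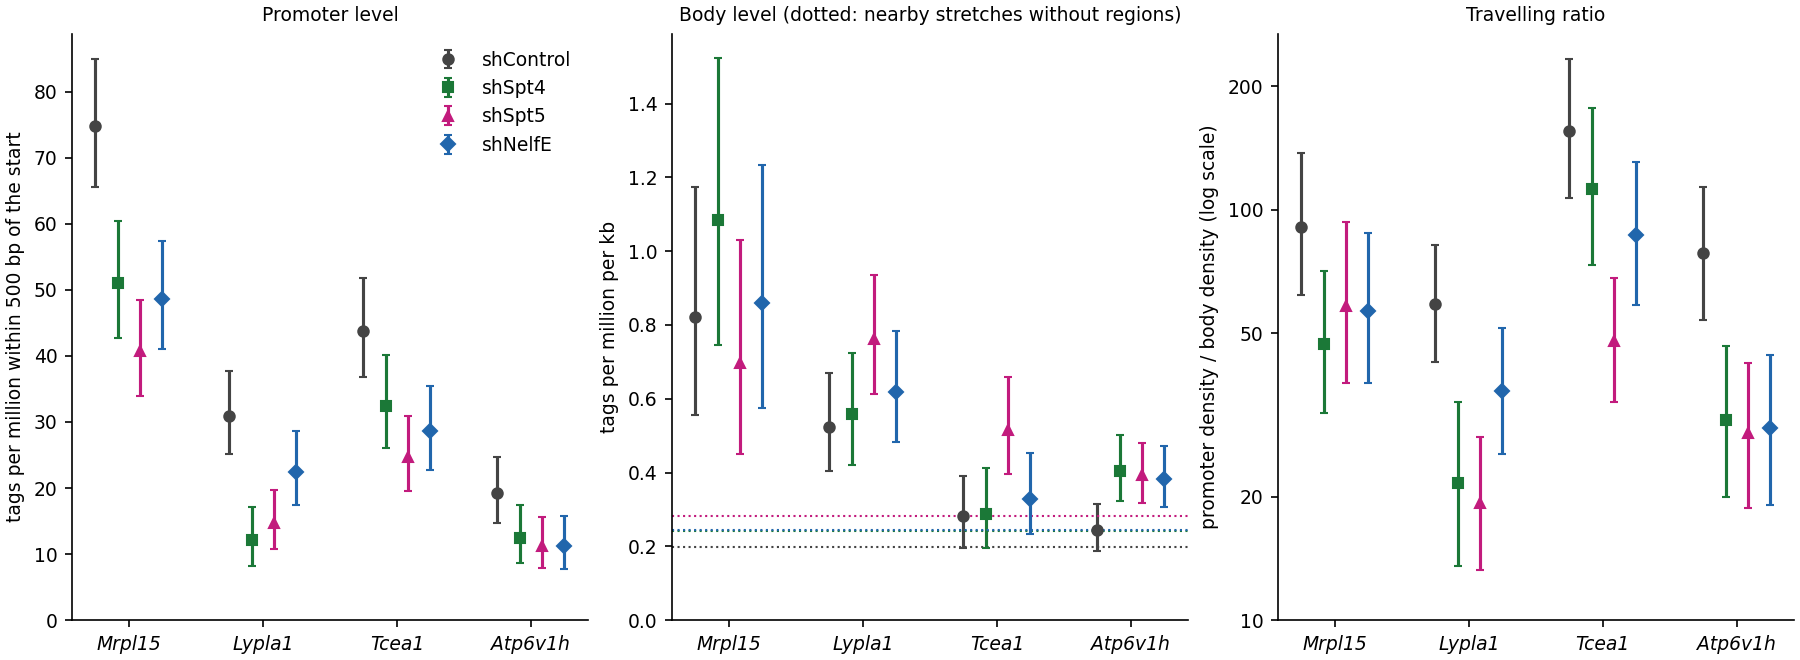
Promoter level (RPM within 500 bp of the start), body level (RPM per kb) and travelling ratio (log scale) of each gene in the 4 libraries, with exact 95% intervals for counting error. Dotted lines mark the density of nearby stretches without enriched regions. At each gene the shControl point is the highest in the promoter and travelling-ratio panels, and in shControl the bodies of Tcea1 and Atp6v1h have intervals that reach its dotted line.

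Mrpl15 had the strongest promoter of the 4. Its promoter held 237 tags in shControl, 135 for shSpt4, 127 for shSpt5 and 143 for shNelfE, or 74.8, 51.0, 40.8 and 48.7 RPM. The control was the highest, and its interval (65.5 to 84.9) did not overlap that of any knockdown library. The ratio to the control was 0.682 (0.548 to 0.846) for shSpt4, 0.545 (0.436 to 0.679) for shSpt5 and 0.651 (0.525 to 0.805) for shNelfE. Its short body held 30, 33, 25 and 29 tags in the same order, and no body ratio had an interval apart from 1. The travelling ratio was 90.8 (61.9 to 138) in shControl, 47.0 (31.9 to 71.0) for shSpt4, 58.4 (37.8 to 93.6) for shSpt5 and 56.7 (37.8 to 87.6) for shNelfE. The shSpt4 value was the lowest of the 4, and that library alone had a ratio to the control with its interval below 1, at 0.518 times its value (0.291 to 0.920). With the body taken from 2 kb that interval ran to 1.01. The shSpt5 and shNelfE values were 0.643 (0.349 to 1.19) and 0.624 (0.346 to 1.13) times the control.

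Lypla1, the thioesterase gene, had the lowest promoter ratio of the 4 genes in shSpt4 and shSpt5 and the highest in shNelfE. Its promoter held 98 tags in shControl, 32 for shSpt4, 46 for shSpt5 and 66 for shNelfE, or 30.9, 12.1, 14.8 and 22.5 RPM. The ratio to the control was 0.391 (0.254 to 0.588) in shSpt4 and 0.477 (0.329 to 0.684) in shSpt5, but 0.727 (0.524 to 1.00) in shNelfE. The levels of both DSIF knockdown libraries had intervals below that of the control (25.1 to 37.7), and shNelfE stood between them and the control. In the narrower window, which leaves out the pooled summit of Lypla1, shNelfE did not stand apart from shSpt5. The ratio was 0.557 (0.284 to 1.05) for shNelfE and 0.558 (0.290 to 1.04) for shSpt5. There Lypla1 was lowest of the 4 genes for shNelfE, and Mrpl15 (0.531) and Tcea1 (0.501) lay below it for shSpt5. For shSpt4 Lypla1 stayed lowest, at 0.270 (0.101 to 0.626). Its body held 63 tags in shControl, 56 for shSpt4, 90 for shSpt5 and 69 for shNelfE, and the shSpt5 ratio was 1.45 (1.04 to 2.04). Scaled to nearby stretches that ratio was 1.02 (0.729 to 1.43), and scaled to windows without regions 0.944 (0.677 to 1.32). The travelling ratio was 58.9 (42.5 to 82.2) in shControl, 21.6 (13.6 to 34.0) for shSpt4, 19.4 (13.3 to 27.9) for shSpt5 and 36.2 (25.4 to 51.5) for shNelfE. Against the control these values were 0.367 times (0.207 to 0.650) for shSpt4, 0.329 times (0.198 to 0.543) for shSpt5 and 0.615 times (0.377 to 1.00) for shNelfE. The shNelfE interval ended just above 1, and it ended at 0.942 when all deposited tags were kept.

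Tcea1, the gene for TFIIS, had the highest travelling ratio in 3 libraries. Its promoter held 139 tags in shControl, 86 for shSpt4, 77 for shSpt5 and 84 for shNelfE, or 43.8, 32.5, 24.7 and 28.6 RPM. The ratio to the control was 0.741 (0.560 to 0.977) for shSpt4, 0.564 (0.421 to 0.750) for shSpt5 and 0.652 (0.491 to 0.861) for shNelfE. In a window from 30 bp upstream to 300 bp downstream, the shSpt4 and shNelfE ratios were 0.811 (0.540 to 1.21) and 0.797 (0.537 to 1.17). Its body held 35, 30, 63 and 38 tags over 39.3 kb in the same order. The shSpt5 body held 1.83 times the control level (1.19 to 2.85). Scaled to nearby stretches it held 1.28 times (0.835 to 1.997), and scaled to windows without regions 1.19 times (0.775 to 1.85). The travelling ratio was 156 (107 to 233) in shControl, 113 (73.5 to 177) for shSpt4, 48.0 (33.9 to 68.0) for shSpt5 and 86.8 (58.5 to 131) for shNelfE. The shSpt5 value was 0.308 times the control (0.181 to 0.521), and 0.201 times with the nearby density taken off. In shNelfE it was 0.557 times (0.315 to 0.983) and in shSpt4 0.722 times (0.399 to 1.31). The shNelfE interval reached past 1 when the body was taken from 2 kb (0.587, 0.329 to 1.05), without enriched regions (0.588, 0.331 to 1.04) or after thinning to equal depth (0.557, 0.301 to 1.03), and with the window to 300 bp downstream (0.680, 0.361 to 1.28).

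Tcea1 also differed from the other genes in what its windows left out. Between 500 and 1000 bp downstream of its start lay 42 tags in shControl, 13 for shSpt4, 24 for shSpt5 and 18 for shNelfE, where the other genes had at most 6 in any library. This second cluster belonged to neither promoter nor body. Its ratio to the control was 0.371 (0.183 to 0.704) for shSpt4, 0.581 (0.337 to 0.982) for shSpt5 and 0.462 (0.251 to 0.821) for shNelfE. When the promoter was extended to 1 kb downstream, the Tcea1 promoter ratios were 0.655, 0.568 and 0.608.

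Part of the Tcea1 promoter was also invisible to the reads used here. The deposited files hold a second category of reads, whose meaning the headers do not state. The promoter held 63 such tags in shControl, 37 for shSpt4, 28 for shSpt5 and 39 for shNelfE, all between 130 and 345 bp downstream of the start, and the other 3 promoters held none. Within 1 kb of the Tcea1 start, all 197 second-category reads of the 4 libraries recurred, read for read and in the same orientation, around position 90710087 on chromosome 15, where they were 98.5% of the 200 second-category reads. First-category tags within 500 bp of that position numbered 0, 1, 2 and 1. The reads of the Tcea1 stretch were thus placed at both sites and are uncertain as to their source. RefSeq lists a Tcea1 pseudogene, Tcea1-ps1, on chromosome 15 of GRCm38.p6, and whether it is the site found here on mm8 was not tested. Their ratio to the control was 0.703 (0.456 to 1.07) for shSpt4, 0.452 (0.279 to 0.716) for shSpt5 and 0.668 (0.436 to 1.01) for shNelfE. With both categories counted, the promoter ratios of Tcea1 were 0.728, 0.527 and 0.656.

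Atp6v1h, the proton pump gene, had the weakest promoter and the longest body. Its promoter held 61 tags in shControl, 33 for shSpt4, 35 for shSpt5 and 33 for shNelfE, or 19.2, 12.5, 11.2 and 11.2 RPM. The 3 knockdown libraries lay close together, with ratios to the control of 0.648 (0.411 to 1.01), 0.584 (0.374 to 0.899) and 0.584 (0.370 to 0.906). In the narrower window the shSpt5 and shNelfE ratios were 0.723 (0.424 to 1.22) and 0.710 (0.411 to 1.21). Its body held 61 tags in shControl, 84 for shSpt4, 96 for shSpt5 and 88 for shNelfE. The body was the 1 body with an interval above the control in every knockdown library, at 1.65 (1.17 to 2.33), 1.60 (1.15 to 2.24) and 1.56 (1.11 to 2.19). Set against nearby stretches without regions, the same ratios were 1.35 (0.957 to 1.90), 1.12 (0.805 to 1.57) and 1.26 (0.895 to 1.77). The travelling ratio was 78.3 (54.0 to 114) in shControl, 30.8 (19.9 to 46.5) for shSpt4, 28.6 (18.8 to 42.5) for shSpt5 and 29.4 (19.1 to 44.3) for shNelfE. These were 0.393 times (0.221 to 0.695), 0.365 times (0.208 to 0.636) and 0.375 times (0.212 to 0.662) the control, and the 3 knockdown values did not differ beyond their intervals. With the nearby density taken off they were 0.190, 0.249 and 0.202 times the control.

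**Figure D2:**
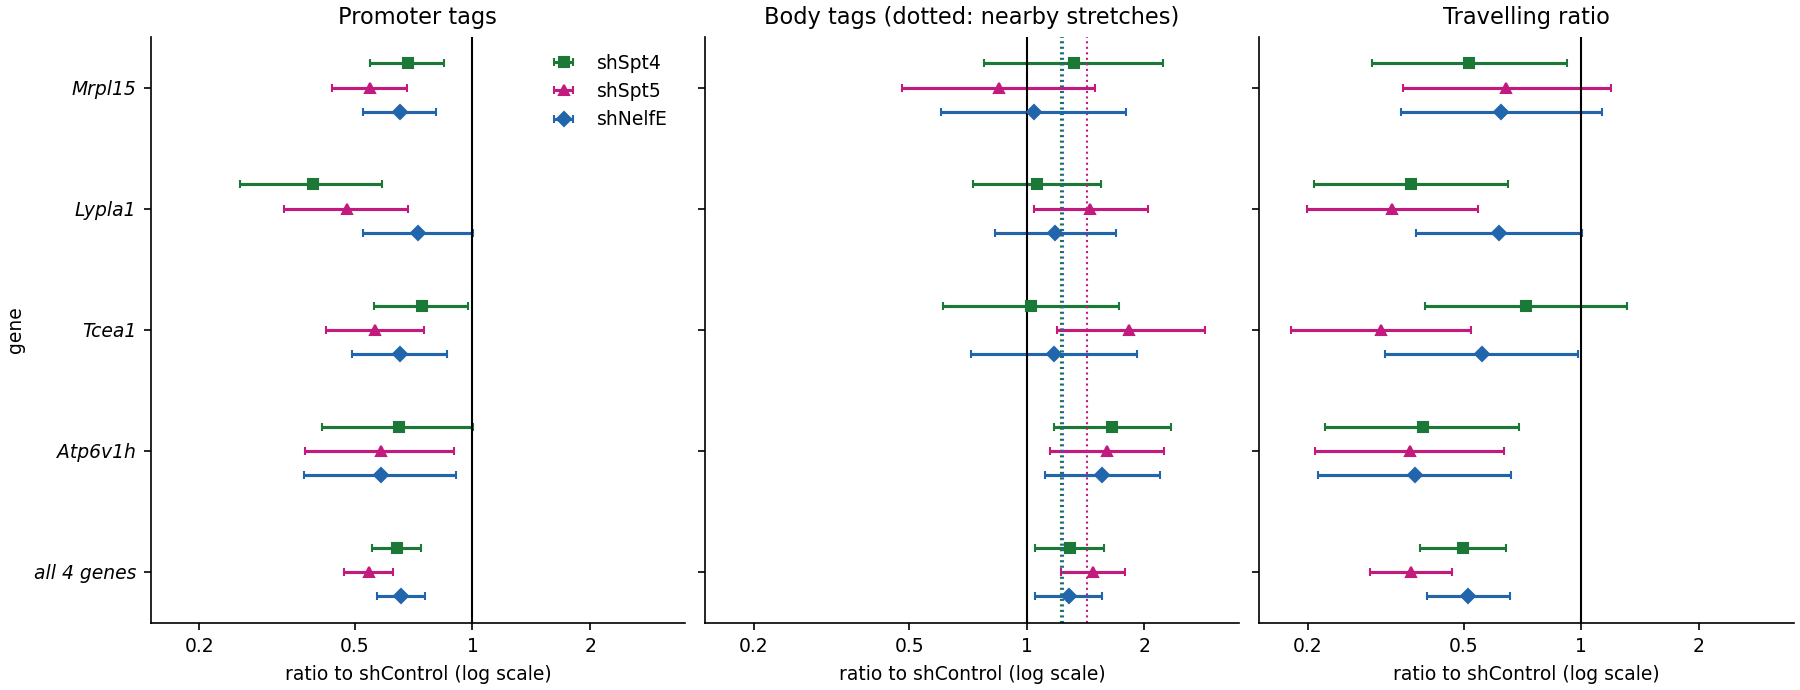
Ratio of each knockdown library to shControl for promoter tags, body tags and travelling ratio at each gene and summed over the 4 genes (log scale), with exact 95% intervals for counting error. Dotted lines in the body panel mark the ratio of nearby stretches without enriched regions. The promoter and travelling-ratio points all lie left of 1, and the summed body points lie close to the dotted lines.

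The body tags of these genes were set beside 210 nearby stretches of 10 kb without enriched regions, within 1 Mb of the genes. Those stretches held 0.197 RPM per kb in shControl, 0.242 for shSpt4, 0.282 for shSpt5 and 0.245 for shNelfE, so they were higher than the control by 1.23 (1.13 to 1.32), 1.43 (1.33 to 1.53) and 1.24 times (1.15 to 1.34). The 4 bodies together had 1.29 (1.05 to 1.58), 1.47 (1.22 to 1.78) and 1.28 times (1.05 to 1.56) the control level. The bodies thus differed from the control by about as much as stretches without enriched regions. Without Atp6v1h the summed body ratios of shSpt4 and shNelfE were 1.11 (0.860 to 1.44) and 1.15 (0.894 to 1.47). Relative to nearby stretches, the body density of all 4 genes was 1.81 times (1.54 to 2.11) in shControl, 1.90 times (1.63 to 2.20) for shSpt4, 1.87 times (1.64 to 2.12) for shSpt5 and 1.87 times (1.61 to 2.15) for shNelfE. Mrpl15 stood highest over them, at 4.17 times (2.80 to 5.98) in shControl, and Lypla1 followed at 2.66 times (2.03 to 3.42). In shControl the bodies of Tcea1 and Atp6v1h were at 1.42 (0.988 to 1.99) and 1.24 times (0.946 to 1.61), so their body tags were not distinguishable there from the nearby level at this depth. In the knockdown libraries Atp6v1h stood above it, at 1.68 (1.33 to 2.09), 1.39 (1.12 to 1.71) and 1.56 times (1.25 to 1.94) in shSpt4, shSpt5 and shNelfE. Tcea1 was above it in shSpt5, at 1.83 times (1.397 to 2.35), and had intervals including it in shSpt4 and shNelfE, at 1.19 (0.802 to 1.71) and 1.35 times (0.948 to 1.86). Body over nearby density, summed over the 4 genes, was alike in the 4 libraries, at 1.81 to 1.90 times. Taking the nearby density off leaves that shared difference in the bodies. This step therefore cannot measure the part of the difference in the travelling ratios. The travelling ratios of the 4 genes were also taken with the nearby density off promoter and body. Summed over the genes, the travelling ratio was then 0.468 times the control for shSpt4, 0.351 for shSpt5 and 0.494 for shNelfE, against 0.498 (0.387 to 0.641), 0.367 (0.289 to 0.468) and 0.514 (0.403 to 0.657) before. For Tcea1 in shSpt4 the direction turned, from 0.722 to 1.32.

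The promoters stood far above the same stretches in every library, and by less in the knockdowns. Over nearby density, the summed promoters were at 214 times (193 to 236) in shControl, 112 times (98.0 to 127) for shSpt4, 81.1 times (71.3 to 91.9) for shSpt5 and 113 times (100 to 128) for shNelfE. Mrpl15 ran from 379 times in shControl to 144 times in shSpt5, and Atp6v1h from 97.5 times in shControl to 39.8 times in shSpt5.

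Across the genes, the order of travelling ratios in shControl was Tcea1, Mrpl15, Atp6v1h and Lypla1, and each neighbour in that order overlapped the next in its interval. Unequal numbers of mappable bases in the genes also enter this order and were not measured. The nearby density enters it too. In shControl the bodies of Tcea1 and Atp6v1h were at 1.42 and 1.24 times that density, against 4.17 for Mrpl15 and 2.66 for Lypla1. The orders across genes were not taken with that density removed. In shSpt4 and shNelfE, Tcea1 was again highest and Mrpl15 next, with Lypla1 lowest in shSpt4 and Atp6v1h in shNelfE. In shSpt5 Mrpl15 was highest, at 58.4, and Tcea1 next, at 48.0, with overlapping intervals. Across libraries, shControl was highest at all 4 genes, and shSpt5 was lowest at Lypla1, Tcea1 and Atp6v1h. The shSpt5 values were not apart from those of shSpt4 at Lypla1 (0.894 times, 0.492 to 1.63) or Atp6v1h (0.928 times, 0.511 to 1.69). With the nearby density taken off, Lypla1 and Tcea1 stayed lowest in shSpt5. Atp6v1h was then lowest in shSpt4, at 0.190 times the control, and Tcea1 in shSpt4 stood above the control, at 1.32 times.

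The knockdown libraries came from 1 flow cell, and 12 comparisons of each quantity were made among them. The promoter differed beyond its interval in 2, both at Lypla1. No promoter interval lay below 1, where 22.3% of regions had one for shSpt5 against shSpt4, 7.69% for shNelfE against shSpt4 and 2.26% for shNelfE against shSpt5. At Lypla1 shNelfE had 1.86 times the tags of shSpt4 (1.20 to 2.93) and 1.52 times those of shSpt5 (1.03 to 2.27), where 4.14% and 19.7% of all enriched regions had an interval above 1. For shSpt5 against shSpt4, 1.42% of regions and none of the 4 promoters did. In the narrower window the Lypla1 ratios to the control were alike, at 0.557 for shNelfE and 0.558 for shSpt5. The travelling ratio differed beyond its interval in 3, and no share over other genes could be had for it or for the body. At Lypla1 it was 1.87 times higher in shNelfE than in shSpt5 (1.11 to 3.15). At Tcea1 it was lower in shSpt5 than in shSpt4, at 0.426 times (0.241 to 0.749), and 1.81 times higher in shNelfE than in shSpt5 (1.06 to 3.11). The body of Tcea1 went with both, at 1.78 times (1.14 to 2.85) in shSpt5 against shSpt4 and 0.640 times (0.416 to 0.972) in shNelfE against shSpt5. Set over the nearby density of each library, the intervals of these bodies overlapped. At Mrpl15 and Atp6v1h no pair of knockdown libraries was apart in any quantity. Their intervals are wide, so sizeable differences are not shut out: at Atp6v1h the travelling ratio of shSpt5 against shSpt4 could lie anywhere from 0.511 to 1.69. Summed over the genes, shNelfE and shSpt4 stood at 1.03 (0.800 to 1.33), and shSpt5 was below shSpt4 at 0.738 (0.574 to 0.950).

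**Figure D3:**
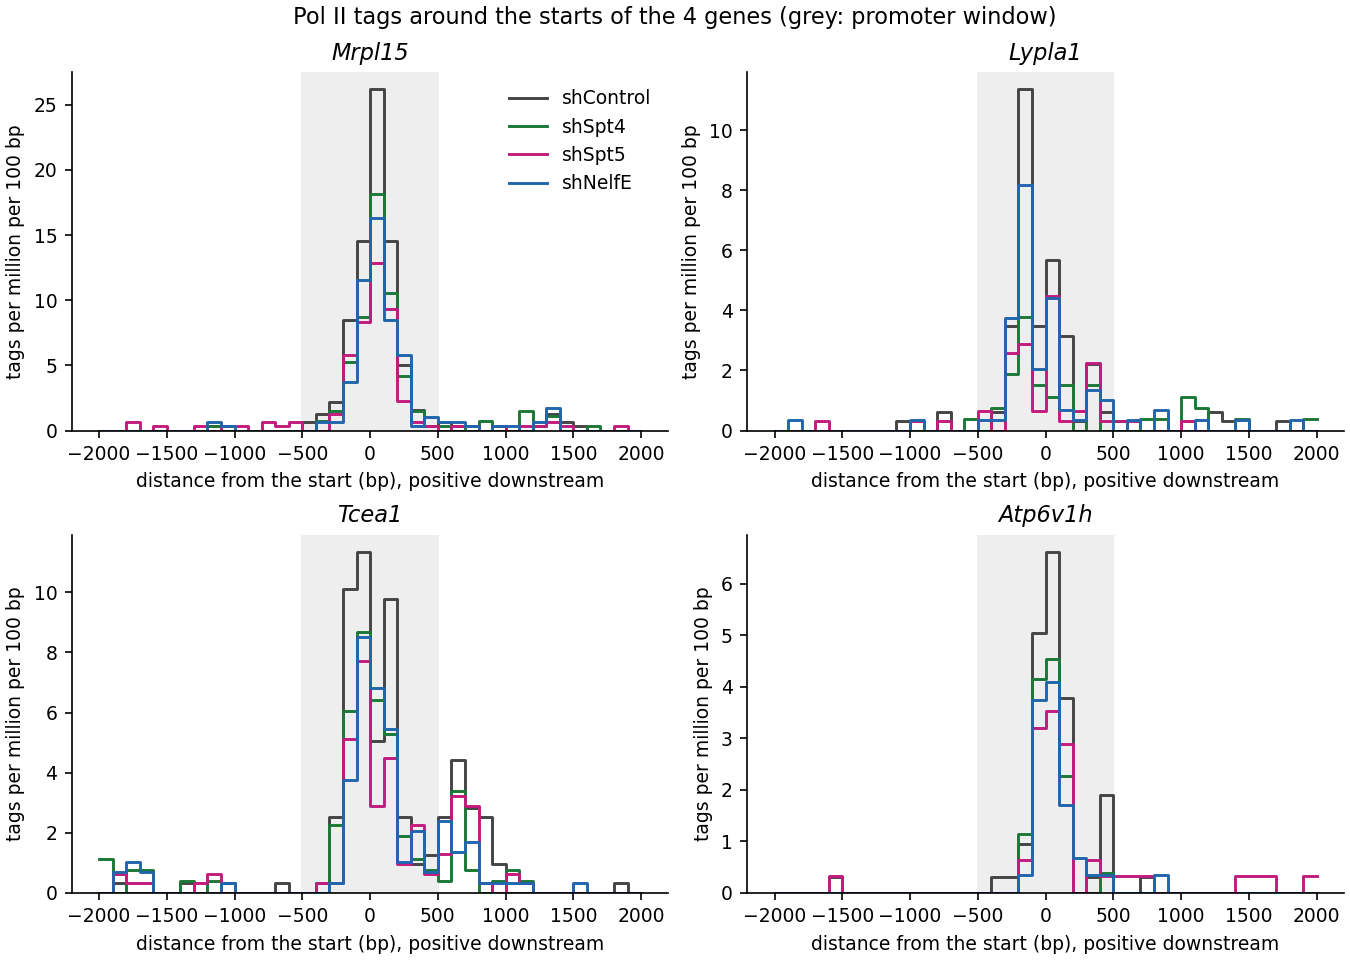
Level in RPM in bins of 100 bp from 2000 bp upstream to 2000 bp downstream of each start, in the 4 libraries; the grey band is the promoter window. Mrpl15 and Atp6v1h show 1 peak at the start, Lypla1 a higher peak upstream of the start than downstream in all libraries but shSpt5, and Tcea1 a second cluster past the window.

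The position of Pol II around the start differed between some of the genes in shControl. The spread between genes was not compared with that between libraries. At Mrpl15 and Atp6v1h most promoter tags lay downstream, and the upstream share was 36.3% (30.2 to 42.8%) and 34.4% (22.7 to 47.7%) in shControl. At Lypla1 the larger peak lay upstream, with 61.2% (50.8 to 70.9%) of shControl tags, and at Tcea1 the share was 55.4% (46.7 to 63.8%). In the knockdown libraries the upstream share ran from 31.9 to 37.8% at Mrpl15, from 45.7 to 65.6% at Lypla1, from 44.0 to 54.5% at Tcea1 and from 34.3 to 42.4% at Atp6v1h. The lowest Lypla1 value, 45.7% (30.9 to 61.0%), was that of shSpt5, where 21 tags lay upstream and 25 downstream, and its interval overlapped that of the control. The median distance of the Mrpl15 tags from the start was 42 bp downstream in shControl and 47 to 61 bp in the knockdowns. Both strands were represented at each start, for example by 124 sense and 113 antisense tags at Mrpl15 in shControl. The 100 bp just inside the promoter window held at most 6 tags of any gene and library, and the 100 bp just outside at most 2, other than at Tcea1 with up to 8.

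**Figure D4:**
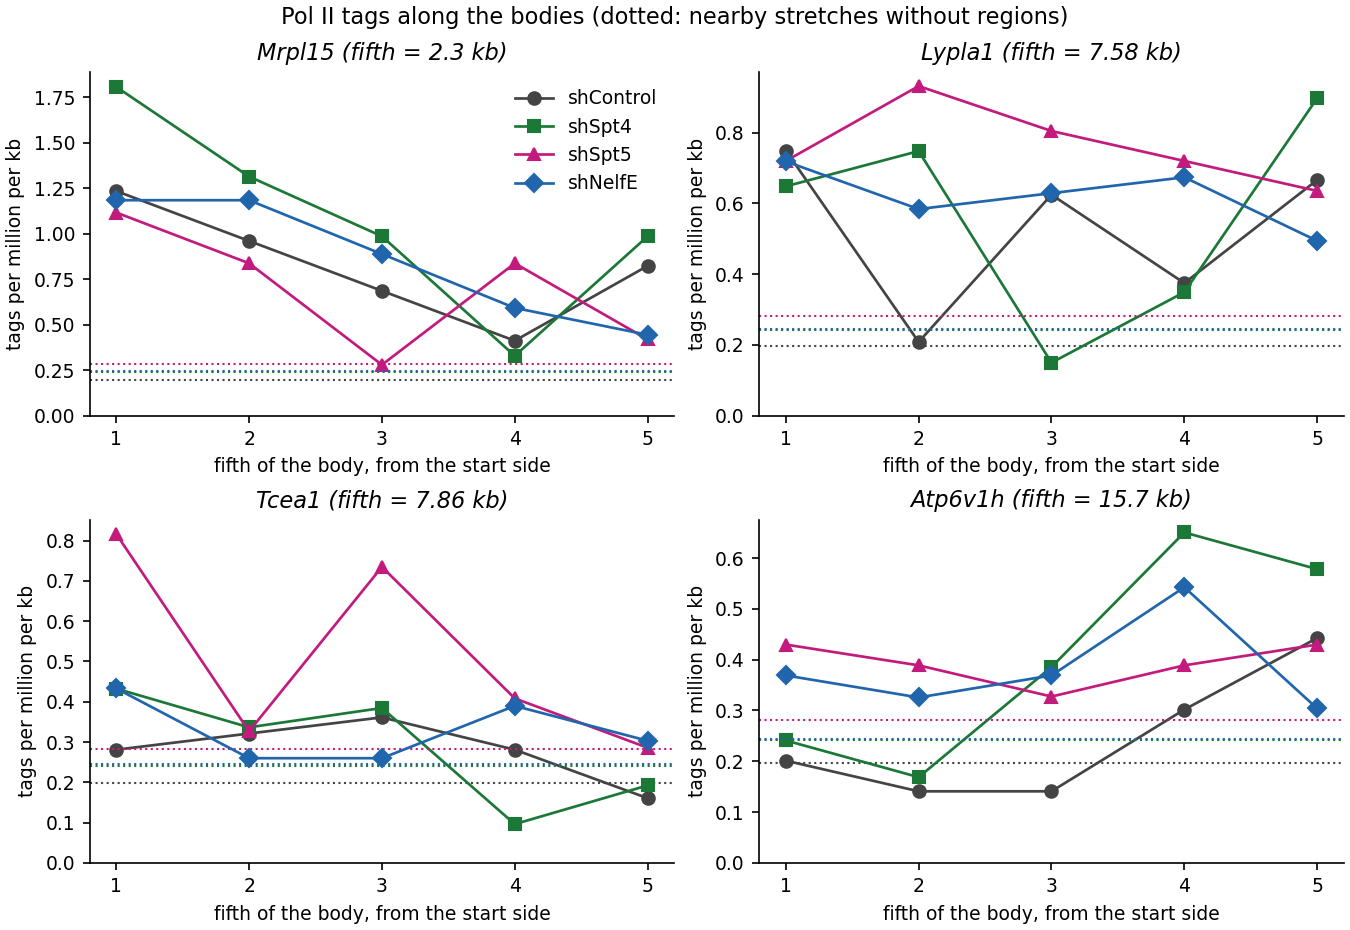
Level in RPM per kb in 5 equal segments of each body, numbered from the start side, in the 4 libraries; dotted lines mark nearby stretches without enriched regions. Mrpl15 has its highest value in segment 1, level with segment 2 in shNelfE, and the Tcea1 and Atp6v1h values of shControl stay near the dotted line except at the far end of Atp6v1h.

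Within the bodies, Mrpl15 had most tags toward the start side in each library. Its segment 1 of 5, which spans 2.3 kb, held 9 of 30 tags in shControl, 11 of 33 for shSpt4, 8 of 25 for shSpt5 and 8 of 29 for shNelfE. These shares ran from 27.6% (12.7 to 47.2%) to 33.3% (18.0 to 51.8%), so a share of 1 in 5 is not outside their intervals. At Lypla1 the density from 1 to 3 kb was 2.61 times that of the rest of the body in shControl (1.07 to 5.51) and 3.44 times in shSpt4 (1.48 to 7.09), and 0.835 times (0.222 to 2.22) in shSpt5. These rest on 8, 9 and 4 tags. At Tcea1 segment 1 held 20 of 63 tags in shSpt5, or 31.7% (20.6 to 44.7%), and 7 of 35 in shControl (8.44 to 36.9%). At Atp6v1h it held 21 of 96 tags in shSpt5 and 10 of 61 in shControl. No enriched region lay inside a body, other than the last base of the region at the Tcea1 start.

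Tags past the ends of the genes were few but above nearby stretches at some. In the 5 kb past its end, Mrpl15 had 12 tags in shControl, 14 for shSpt4, 9 for shSpt5 and 4 for shNelfE. The shControl and shSpt4 densities were 3.84 (1.98 to 6.73) and 4.38 times (2.39 to 7.37) the nearby density, and shNelfE was at 1.11 times (0.303 to 2.86). Lypla1 had 11, 11, 9 and 14 tags there, and Tcea1 had 9, 13, 11 and 7. Over nearby density, Lypla1 was at 3.52 (1.75 to 6.32), 3.44 (1.71 to 6.18), 2.05 (0.936 to 3.90) and 3.90 times (2.13 to 6.56). The 5 kb past Lypla1 ended just before the enriched region at 4842001 to 4842400, whereas the nearby stretches lay at least 5 kb from any region. Tcea1 was at 2.88 (1.31 to 5.48), 4.07 (2.16 to 6.98), 2.51 (1.25 to 4.49) and 1.95 times (0.782 to 4.02). Atp6v1h had 5 or 6 in each library, with every interval including the nearby density.

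**Figure D5:**
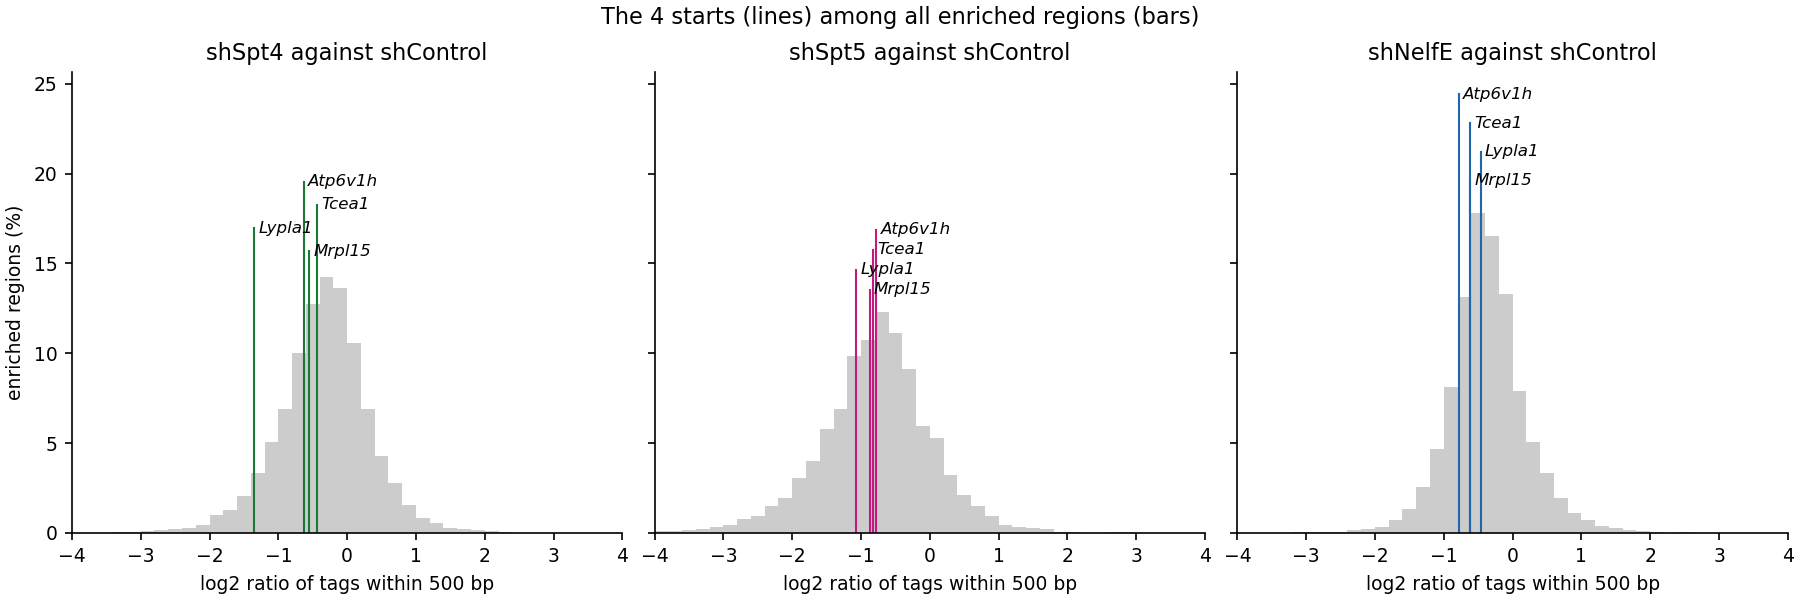
Log2 ratio to shControl of tags within 500 bp of the summit at all 13406 enriched regions (bars, % of regions) and within 500 bp of the start at the 4 genes (lines, whose heights only separate the names). The genes lie within the bulk of the regions, other than Lypla1 in shSpt4 at percentile 7.09.

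Among all enriched regions the 4 starts ranked high in level. By tags in shControl, Mrpl15 was at percentile 99.5, Tcea1 at 96.0, Lypla1 at 89.7 and Atp6v1h at 76.6. All 12 of their ratios to the control lay below the median region, between percentile 7.09 and 49.5. The median ratio over regions was 0.798 for shSpt4, 0.587 for shSpt5 and 0.755 for shNelfE, and the median of the 4 genes was 0.665, 0.554 and 0.652. Over the 3531 regions with at least 162 tags it was 0.845, 0.598 and 0.739. In shSpt5 the genes lay between percentile 34.0 (Lypla1) and 49.5 (Atp6v1h), and in shNelfE between 20.7 (Atp6v1h) and 44.9 (Lypla1). In shSpt4 Lypla1 was at percentile 7.09 and the others between 30.8 and 42.6. A ratio of at most 0.5 with an interval below 1 was found at Lypla1 alone, in shSpt4 and shSpt5, so at 1 of 4, 1 of 4 and 0 of 4 genes, where 10.4%, 30.4% and 7.32% of all regions met it. The 4 genes thus met it about as often as regions in general.

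A ratio of centre to flank could be had at all regions without knowing a gene body. It divided the density within 500 bp by that from 1 to 3 kb away on both sides. At the 4 starts this focal ratio in shControl was 105 (54.5 to 233) at Mrpl15, 28.0 (15.9 to 53.1) at Lypla1, 46.3 (25.7 to 91.8) at Tcea1 and 122 (32.3 to 1030) at Atp6v1h, against a median of 11.9 over regions. The flanks rest on 9, 14, 12 and 2 tags. Against the control it was 0.412 times (0.173 to 0.960) for shSpt4, 0.350 times (0.147 to 0.809) for shSpt5 and 0.363 times (0.154 to 0.828) for shNelfE at Tcea1. With flanks from 2 to 5 kb the Tcea1 values were 0.928 (0.400 to 2.22), 0.384 (0.186 to 0.782) and 0.680 times (0.309 to 1.51). At Mrpl15 the values were 0.394, 0.402 and 0.418 times, with intervals reaching 1.03 to 1.09. At Lypla1 it was 0.457 times (0.170 to 1.28) in shSpt4 and 0.730 times (0.271 to 2.07) in shSpt5, and in shNelfE it was above the control at 1.57 times (0.532 to 5.24). With the farther flanks the Lypla1 values were 1.20 (0.421 to 3.93), 0.469 (0.223 to 0.992) and 1.23 times (0.541 to 2.93), so the direction in shSpt4 turned. The farther upstream flank of Lypla1 touches the enriched region that ends at 4792900, and that of Tcea1 lies close to the region ending at 4842400. Those regions held 21 and 24 tags in shControl and 6 and 7 in shSpt4. Whether their tags enter the farther flanks was not tested. At Atp6v1h the ratio was 0.164 times (0.0161 to 0.940) in shSpt5 and 0.361 times (0.0291 to 3.35) in shNelfE, and shSpt4 had no flank tag. With the farther flanks these were 0.459 (0.0858 to 2.31) and 0.541 times (0.0948 to 3.12). The interval lay below 1 at 1 gene for shSpt4, 2 for shSpt5 and 1 for shNelfE, where 4.57%, 14.1% and 4.86% of all regions had such an interval. Most of those regions held fewer tags than the starts, which widens their intervals. No share was taken over regions with as many tags as the starts, or for the farther flanks, so the genes cannot be ranked by this count. Of 11 ratios to the control, 4 had an interval below 1, and 2 had one with flanks from 2 to 5 kb, those of Lypla1 and Tcea1 in shSpt5. These counts thus rest on the choice of flank.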

How the data were processed

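The 4 libraries of Pol II ChIP-seq stand for 1 group each. The deposited values were positions of aligned reads, 1 signed number per read, made by the authors with Bowtie on build mm8 (-e 70 -k 2 -m 2 -n 2 -l 36), per the file headers. The aligner version, and whether duplicates were removed, are not given in the sources used here. From the first read category, 1 tag per position and strand was kept and moved by 40 bp toward the fragment centre, from a strand offset of 80 bp on chromosomes 11 and 19. To call enriched regions, each library was thinned to 2646944 tags and all were pooled, in windows of 250 bp at a Poisson p of 1e-9, merged within 500 bp. Ratios between libraries have exact binomial intervals and travelling ratios exact conditional odds ratios (scipy 1.17.1). Nearby stretches were tiles of 10 kb at least 5 kb from any region or gene of the 4. A region was called lower at a ratio of at most 0.5 with its interval below 1. The 4 genes were all named. No other gene was measured, and for each of the 4 the region with the most similar ratios is given. Members, windows and lists were chosen with earlier results of these data known. Interval and call code was tested on simulated data.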

Additional observations from a re-analysis of the deposited data

How the results depend on the processing

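Travelling ratios do not depend on how libraries are scaled, and the travelling ratio summed over the 4 genes stayed below the control under all 16 alternatives in each knockdown library, between 0.443 and 0.574 times in shSpt4, 0.331 and 0.383 in shSpt5 and 0.484 and 0.582 in shNelfE. Leaving out each gene in turn, extending the promoter to 1 kb downstream and scaling to nearby stretches were chosen after seeing the data. With nearby density taken off, single travelling ratios moved past their intervals to 1.32 at Tcea1 in shSpt4, 0.190 at Atp6v1h in shSpt4 and 0.202 at Atp6v1h in shNelfE; the body of these 2 genes is near that density, which makes the denominator small. Scaling decided the body values. Scaled to windows of 1 Mb without any region, summed promoter ratios were 0.485, 0.352 and 0.518 and summed body ratios 0.975, 0.958 and 1.01 in shSpt4, shSpt5 and shNelfE, and the Lypla1 body in shSpt5 was 0.944. Scaled to nearby stretches, the promoter ratios were 0.523, 0.379 and 0.530, and the body ratios 1.05, 1.03 and 1.03. Regions called lower numbered 1389, 4080 and 981; scaled by the median region they were 584, 935 and 193, and scaled to windows without regions 3517, 8740 and 3135. Of the 4 genes, 1, 1 and 0 were called lower; scaled by the median region shSpt5 had 0, and scaled to windows without regions they were 2, 4 and 1. No paired analysis was possible because each group holds 1 library, and none could be left out. Depth limits the single bodies, which held 25 to 96 tags.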

Other observations

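Small enriched regions lay 5 to 6 kb before the starts of Lypla1 and Tcea1. The region at chromosome 1, 4792551 to 4792900, before Lypla1, held 21 tags within 500 bp of its summit in shControl, 6 for shSpt4, 11 for shSpt5 and 8 for shNelfE. Its ratio to the control was 0.342 (0.113 to 0.876) for shSpt4, 0.533 (0.232 to 1.16) for shSpt5 and 0.411 (0.157 to 0.966) for shNelfE. The region at 4842001 to 4842400, between the end of Lypla1 and the start of Tcea1, held 24, 7, 5 and 8 tags. There the ratios were 0.349 (0.127 to 0.836), 0.212 (0.0632 to 0.567) and 0.360 (0.140 to 0.828). Of the other regions within 1 Mb, that at 4960551 to 4961050 had ratios of 0.493 (0.173 to 1.25), 0.539 (0.212 to 1.28) and 0.698 (0.296 to 1.58). That at 3984801 to 3985100 held 2, 10, 1 and 6 tags. Its ratios were 5.99 (1.28 to 56.2), 0.509 (0.00862 to 9.77) and 3.24 (0.579 to 32.8). The regions before Lypla1 and Tcea1 were chosen after their values were seen, and what any of these regions are was not examined.

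For each start, the enriched region elsewhere with the most similar ratios to the control was found among 9315 regions with at least 50 tags. Regions on chromosome 18 and on the mitochondrial genome were left out of this search. The likeness was the Euclidean distance over the log2 ratios of the 3 knockdown libraries, which share 1 control library. For Mrpl15 it was chromosome 6, 88049751 to 88050750, at a distance of 0.018, with log2 ratios of -0.57, -0.88 and -0.62 in shSpt4, shSpt5 and shNelfE. For Tcea1 it was chromosome 8, 98695701 to 98697450, at 0.017, with -0.43, -0.82 and -0.60, and for Atp6v1h chromosome 11, 61395251 to 61396050, at 0.016, with -0.63, -0.78 and -0.78. For Lypla1 it was chromosome 15, 73472851 to 73473400, at 0.073, with -1.27, -1.07 and -0.46. Regions within a distance of 0.5 made up 21.6% of the 9315 for Mrpl15, 23.9% for Tcea1, 16.6% for Atp6v1h and 3.20% for Lypla1. With many regions at such distances, a near match is common for the first 3 genes.

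Repeated positions were more frequent at the promoters than over the whole library at all 4 genes in shControl and shSpt4, and at 3 of the 4 in each of the others. In shControl they made up 22.0% of the reads at the Mrpl15 promoter, 15.5% at Lypla1, 18.2% at Tcea1 and 15.3% at Atp6v1h, against 9.07% of all reads. In shSpt4 they were 8.33 to 10.6%, against 8.13%. In shSpt5 they made up 17.7% of all reads, and 18.6% at Mrpl15, 9.80% at Lypla1, 23.8% at Tcea1 and 23.9% at Atp6v1h. In shNelfE they made up 10.2% of all reads, and 17.8%, 12%, 9.68% and 19.5% at the same genes.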
